A study of Mus musculus with 3 samples.

Results

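Igf1, its receptor gene Igf1r and the binding protein genes Igfbp2, Igfbp3, Igfbp4, Igfbp5 and Igfbp7 were described across the cell classes of the mouse AGM, the aorta-gonad-mesonephros region of the embryo. The 7 genes were taken by symbol from the 27998 genes of the count matrix, and all 7 were found. Of these, 5 genes, Igf1, Igf1r, Igfbp3, Igfbp4 and Igfbp5, reached 50 CPM, the UMIs of a gene scaled to a fixed total of UMIs of the class, in at least 1 class. The highest level was 45.0 CPM for Igfbp2 and 10.9 CPM for Igfbp7.

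In the AGM the wall of the dorsal aorta gives rise to haematopoietic stem cells. Single-cell RNA was measured with 10x Genomics version 2 chemistry, which counts transcript 3' ends with unique molecular identifiers (UMIs), at E10.5 in pooled embryos with 28 to 32 pairs of somites. The 3 sorted populations were live Ter119- niche cells, endothelial cells (Ter119-CD31+VCad+CD41-cKit+) and T1-preHSCs (Ter119-CD31+VCad+CD41lowcKit+), precursors of haematopoietic stem cells, with 1 sample of each. The labels name no strain, genotype or treatment, and the embryos of a sample were pooled, so no animal could be followed.

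The barcodes of the single matrix carry 8 suffixes, called libraries 1 to 8 here, and nothing ties a suffix to a sorted population. All cells were therefore treated as 1 sample, and cells were put into classes by marker genes that include none of the 7 genes. Nothing was tested across samples. Libraries are barcode suffixes and not samples, so the same direction in several of them cannot be read as replication across embryos. Each CPM has a 95% interval from the exact Poisson limits and each share one from the exact Clopper-Pearson limits, and both cover counting error alone. Of 9492 barcodes, 8915 were kept and 6303 were put in a class. The median was 7544 UMIs per barcode, and kept cells had medians of 6387 to 8656 UMIs in libraries 1 to 6, with 14621 in library 7 and 15632 in library 8. There were 54 barcode sequences that occurred in more than 1 library, at most 7 of them in any pair of libraries.

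The classes lay in different libraries. Libraries 5 and 6 held 960 and 911 of the 1989 endothelial cells, libraries 7 and 8 held 51 and 79 of the 174 haematopoietic cells with Cdh5 (the VE-cadherin gene) and 33 and 56 of the 142 without it, and the mesenchymal, somite and neural classes came almost wholly from libraries 1 to 4. The class names rest on these medians of detected markers. Endothelial subsets had 9 to 10 of 12 endothelial markers, haematopoietic cells 7 of 12 blood markers, neurons 7 of 10 and germ cells 6 of 10. Mesenchymal cells had 3 of 12 of their markers, and sclerotome, dermomyotome or myotome and neural progenitor cells had 4 of 10 each. Smooth muscle and coelomic epithelial or gonadal cells also had 4 of 10, and gut epithelial cells 4 of 8. All these classes sit close to the threshold of 3 markers. In smooth muscle cells the dermomyotome or myotome markers summed to 2734 CPM, with a median of 1 of 10 detected, beside 2938 CPM in that class itself. Cells with exactly 3 markers, or with a narrow lead over the next list, made up 349 of 573 mesenchymal, 297 of 748 sclerotome, 223 of 442 dermomyotome or myotome, 247 of 526 neural progenitor and 130 of 751 neuron cells.

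Insulin-like growth factors (IGF1 and IGF2) are secreted peptides that bind the receptor tyrosine kinase encoded by Igf1r and drive growth and survival through the PI3K-AKT-mTOR pathway. IGF-binding proteins hold the peptides in the fluid around cells. They can keep the ligand from its receptor or carry it to the cell surface and release it when cut by proteases such as pregnancy-associated plasma protein A. Igfbp7 encodes a relative that binds IGFs weakly and is known from blood vessel walls. In the embryo IGF2 is an abundant fetal growth factor, and IGF1 adds to growth later in gestation.

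Sequences upstream of the start site in RefSeq are shown for the 4 genes that differed most between classes, so that their levels can be set beside their promoters. They are the 250 bases upstream of the RefSeq start, 5′ to 3′ on the gene's strand, build GRCm38.p6. Capitals mark a match to 1 of 5 motifs searched on both strands (TATAAA for the TATA box, CGGAAG for ETS factors, AGATAA for GATA factors, GGGCGG for the GC box and CAGCTG for an E-box). The windows are chr10:87860861-87861110 on the plus strand for Igf1, chr11:7213924-7214173 on the minus strand for Igfbp3, chr11:99040994-99041243 on the plus strand for Igfbp4 and chr1:72874866-72875115 on the minus strand for Igfbp5. The Igfbp3 and Igfbp4 windows end where the GENCODE gene begins. The Igf1 window lies inside the GENCODE gene, downstream of its first base, so the RefSeq start used is an internal one, and the Igfbp5 window overlaps the first bases of the GENCODE gene.
Igf1: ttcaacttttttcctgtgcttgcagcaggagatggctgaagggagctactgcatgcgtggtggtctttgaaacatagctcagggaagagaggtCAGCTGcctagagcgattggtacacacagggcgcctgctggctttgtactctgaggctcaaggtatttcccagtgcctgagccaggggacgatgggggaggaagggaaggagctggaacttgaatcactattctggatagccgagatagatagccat
Igfbp3: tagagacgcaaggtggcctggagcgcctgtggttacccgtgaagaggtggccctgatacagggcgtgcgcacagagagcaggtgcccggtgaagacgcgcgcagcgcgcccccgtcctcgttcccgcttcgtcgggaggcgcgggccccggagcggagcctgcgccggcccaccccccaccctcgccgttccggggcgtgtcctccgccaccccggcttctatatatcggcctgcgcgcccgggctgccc
Igfbp4: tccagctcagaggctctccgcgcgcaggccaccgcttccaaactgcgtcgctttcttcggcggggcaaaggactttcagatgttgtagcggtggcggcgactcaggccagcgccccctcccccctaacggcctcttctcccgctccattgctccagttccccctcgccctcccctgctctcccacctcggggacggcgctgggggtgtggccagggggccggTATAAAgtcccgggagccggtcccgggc
Igfbp5: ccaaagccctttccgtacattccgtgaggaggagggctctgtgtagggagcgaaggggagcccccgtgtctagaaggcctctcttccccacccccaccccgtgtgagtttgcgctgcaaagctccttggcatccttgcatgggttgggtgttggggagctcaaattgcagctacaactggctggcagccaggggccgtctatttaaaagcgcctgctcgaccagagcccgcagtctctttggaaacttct
The Igfbp4 window held a TATA box 28 to 23 bases before the start, a match found in 12.4% of 32851 RefSeq promoter windows of this length. The Igf1 window held an E-box, found in 13.0% of windows, 157 to 152 bases before the start. The Igfbp3 and Igfbp5 windows held none of the 5 letter strings, which says only that these letters are not in these windows. The share of G and C was 52.8% for Igf1, 73.2% for Igfbp3, 69.2% for Igfbp4 and 58.8% for Igfbp5, beside a median of 52.4% over all windows. Counts of 3' ends do not tell which start site a transcript used.

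On GRCm38, the assembly behind the mm10 build of the counts, GENCODE places Igf1 at chr10:87858265-87937042, Igf1r at chr7:67952827-68233668, Igfbp4 at chr11:99041244-99054392, Igfbp3 at chr11:7206086-7213923 and Igfbp7 at chr5:77349240-77408041. Igfbp2 (chr1:72824503-72852474, plus strand) and Igfbp5 (chr1:72857932-72874884, minus strand) point towards each other with 5458 bases between them. Their levels are given separately below, and across 16 classes they had a Pearson correlation of 0.36. Igf1 overlaps the antisense gene Igf1os, and Igfbp7 overlaps Polr2b and Gm34648, each on the opposite strand. The sources used here do not say whether counting used strand, so reads of these overlapping genes may not be separable.

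Igf1, the ligand, was highest in venous endothelial cells and close to absent from neural classes. Endothelial cells were divided by arterial and venous marker genes, a difference of at least 2 detected markers in either direction being needed, into 40 arterial, 1692 venous and 257 intermediate cells. Igf1 stood at 159 CPM (153 to 166) in venous cells, with 152 to 166 CPM over the 3 libraries with at least 20 such cells, at 96.1 CPM (82.0 to 112) in intermediate cells and at 90.6 CPM (58.6 to 134) in arterial cells. Venous cells lay above the other subsets by both interval and library range, whereas the intermediate and arterial intervals overlapped.

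The next levels were those of mesenchyme and of the dermomyotome or myotome, the somite compartments that form dermis and muscle. Mesenchymal cells, the loose connective tissue of the embryo, held Igf1 at 80.0 CPM (72.0 to 88.5), with 83.1, 86.0, 89.6 and 66.4 CPM in libraries 1 to 4. Dermomyotome or myotome cells held 53.2 CPM (46.4 to 60.7), with 43.9, 59.9, 47.4 and 60.8 CPM. In these 4 libraries the lowest mesenchymal value lay above the highest dermomyotome or myotome value.

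Cdh5+ haematopoietic cells had 37.2 CPM (29.9 to 45.6) of Igf1. There were 5 classes that lay lower with overlapping intervals from each to the next, namely coelomic epithelial or gonadal cells at 18.5, sclerotome at 18.2, smooth muscle at 17.2, Cdh5- haematopoietic cells at 14.0 and neural crest cells at 8.10 CPM. Gut epithelial, macrophage and nephric cells had 2 or 3 UMIs each (5.63, 5.28 and 3.68 CPM), and neurons had 3.37 CPM (2.00 to 5.32). Neural progenitors held 3 UMIs in 526 cells (0.726 CPM), germ cells 1 UMI in 230 cells (0.520 CPM) and the 40 megakaryocytes none, where 3 counts would be 6.51 CPM.

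The share of cells with an Igf1 UMI followed the levels. Each cell was thinned to 3000 UMIs so that classes of unlike depth could be compared, which left out 74 of 1989 endothelial cells. After thinning, 36.0% (33.6 to 38.3%) of venous, 22.1% of intermediate and 18.9% (7.96 to 35.2%) of arterial cells had an Igf1 UMI, against 60.2, 41.2 and 40.0% before thinning. The thinned share was 18.8% (15.6 to 22.2%) in mesenchyme. It was 0 of 224 germ cells (upper limit 1.63%). Before thinning, the 108 and 104 germ cells of libraries 5 and 6, where most endothelial cells lay, held 0 and 1 Igf1 UMIs. Free Igf1 RNA was not measured apart from these values.

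**Figure D1:**
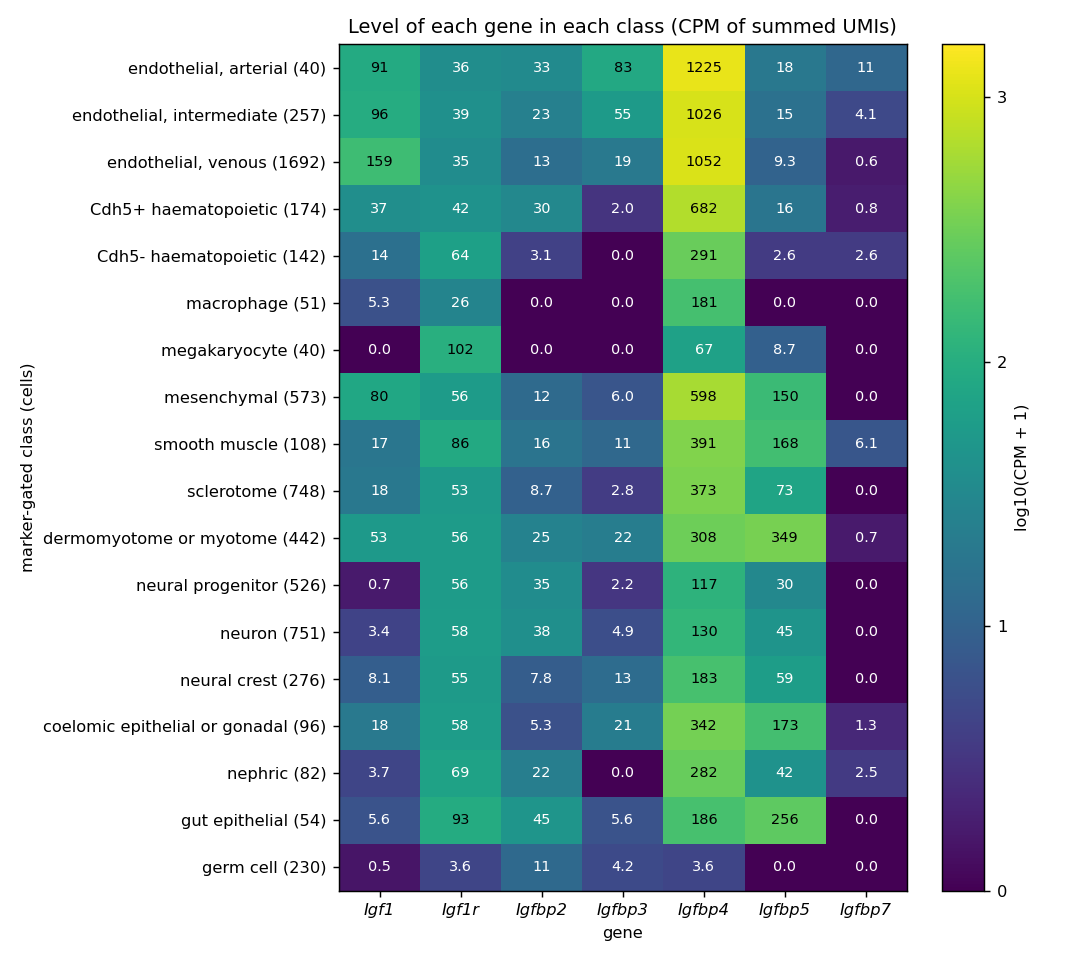
Level of each of the 7 genes (columns) in 18 marker-gated classes (rows, number of cells in parentheses), as CPM of summed UMIs printed in each box and coloured by log10(CPM + 1). Igf1 is highest in venous endothelial cells (159 CPM), Igfbp4 in arterial ones (1225 CPM) and Igfbp5 in dermomyotome or myotome cells (349 CPM), while Igf1r lies between 26.4 and 102 CPM in all classes but germ cells.

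Igf1r, the receptor, was detected in every class. Megakaryocytes, the platelet precursors, had 102 CPM (75.0 to 136), gut epithelial cells 92.9 CPM and smooth muscle cells 85.8 CPM. Nephric cells at 68.8, Cdh5- haematopoietic cells at 64.4, neurons at 58.2, coelomic epithelial or gonadal cells at 58.0, mesenchyme at 55.9, neural progenitors at 55.9, dermomyotome or myotome at 55.9, neural crest at 54.8 and sclerotome at 52.6 CPM followed. The intervals of these 9 classes of unlike origin all overlapped.

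Endothelial cells lay near the lower end for the receptor. Igf1r stood at 39.3 CPM in intermediate, 36.2 CPM in arterial and 35.1 CPM (32.1 to 38.4) in venous cells. Over libraries 1 to 6 the whole endothelial class ranged from 23.6 to 53.4 CPM. Macrophages had 26.4 CPM (14.8 to 43.6), and germ cells 3.64 CPM (1.46 to 7.50). Down the ordered list of 18 classes, the step from macrophages to germ cells was the one place where neighbouring intervals did not overlap. Venous cells, with the highest ligand level, thus had less receptor RNA per UMI than mesenchyme (35.1 against 55.9 CPM).

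Igfbp4, which encodes a binding protein known mainly for holding IGFs back until it is cut, was found in nearly all endothelial cells. It stood at 1225 CPM (1098 to 1363) in arterial, 1052 CPM (1035 to 1069) in venous and 1026 CPM (979 to 1076) in intermediate cells. In the whole endothelial class the values were 1097, 1192, 1006, 1155, 1061 and 1043 CPM in libraries 1 to 6. These 6 values lay within a narrow range although the libraries held from 21 to 960 endothelial cells.

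Below the endothelium, Cdh5+ haematopoietic cells had 682 CPM of Igfbp4, with 693 and 637 CPM in libraries 7 and 8. Mesenchyme had 598 CPM, with 575, 634, 581 and 601 CPM in libraries 1 to 4. Smooth muscle (391 CPM), sclerotome (373), coelomic epithelial or gonadal (342), dermomyotome or myotome (308), Cdh5- haematopoietic (291) and nephric cells (282) formed a middle group. Gut epithelium, neural crest and macrophages had 181 to 186 CPM, neurons 130 CPM, neural progenitors 117 CPM and megakaryocytes 67.3 CPM.

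Germ cells had 3.64 CPM of Igfbp4 (1.46 to 7.50), with 1.27 and 6.28 CPM in libraries 5 and 6. The endothelial cells of the same libraries had 1061 and 1043 CPM. Free RNA was not measured apart from these germ cell values. At 3000 UMIs, 95% of venous, 85.6% of Cdh5+ haematopoietic, 79.8% of mesenchymal, 51.4% of Cdh5- haematopoietic and 26.4% of neural progenitor cells had an Igfbp4 UMI, beside 0.893% of germ cells. In libraries 1 to 4 no class of at least 20 cells lacked Igfbp4, so for neural classes the part of free RNA in these levels was not tested.

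Igfbp5, whose protein binds to extracellular matrix and is known in muscle and bone formation, was highest in the dermomyotome or myotome. The level there was 349 CPM (331 to 367), with 404, 310, 308 and 360 CPM in libraries 1 to 4. Gut epithelium followed with 256 CPM (206 to 314), then coelomic epithelial or gonadal cells with 173, smooth muscle with 168 and mesenchyme with 150 CPM (139 to 162). Mesenchyme held 174, 151, 171 and 121 CPM in libraries 1 to 4, all below the lowest dermomyotome or myotome value.

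Sclerotome, the somite compartment that forms vertebrae, had 73.2 CPM of Igfbp5 and neural crest 59.3 CPM. Neurons had 44.7 CPM, nephric cells 41.8 CPM and neural progenitors 30.5 CPM. Endothelial subsets held 18.1 CPM (arterial, 5 UMIs), 14.7 CPM (intermediate) and 9.31 CPM (venous). Germ cells and macrophages held no UMI.

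The endothelial Igfbp5 value depended on the library. It was 33.6, 19.4, 4.86 and 51.9 CPM in libraries 1 to 4, where 21 to 42 endothelial cells lay among mesenchyme and somite cells, and 6.72 and 9.67 CPM in libraries 5 and 6. The 12 mesenchymal markers summed to 42.8, 29.1, 19.4 and 28.3 CPM in endothelial cells of libraries 1 to 4 and to 6.28 and 5.44 CPM in libraries 5 and 6, against 974 CPM in mesenchyme itself. Between 1 and 3 of those 12 markers had a UMI in endothelial cells of each of libraries 1 to 4, where Foxf1, Hand1, Hand2, Osr1, Shox2, Tbx18, Tbx5, Tcf21 and Wnt2 were at 0. The 10 dermomyotome or myotome markers summed to 33.6, 33.9, 72.9 and 28.3 CPM in endothelial cells of libraries 1 to 4 and to 7.32 and 11.8 CPM in libraries 5 and 6, against 2938 CPM in the class itself. Between 2 and 7 of those 10 had a UMI in each of libraries 1 to 4, with Chrna1, Myf5 and Myod1 at 0. Library 3, with the lowest endothelial Igfbp5, had the highest of these sums but the lowest mesenchymal sum of libraries 1 to 4. The part of mesenchymal or somite RNA in the Igfbp5 of these cells was not tested.

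Igfbp3, whose protein is the main IGF carrier of adult blood, was highest in the endothelial cells with arterial markers. It stood at 83.4 CPM (52.8 to 125) from 23 UMIs in arterial cells, at 55.1 CPM (44.5 to 67.4) in intermediate cells and at 18.6 CPM (16.4 to 21.0) in venous cells. Dermomyotome or myotome cells had 21.7 CPM and coelomic epithelial or gonadal cells 21.1 CPM, levels near that of venous cells. Neural crest had 12.6 CPM, smooth muscle 11.03 CPM and mesenchyme 6.02 CPM. Cdh5+ haematopoietic cells held 5 UMIs (2.04 CPM), and Cdh5- haematopoietic, macrophage, megakaryocyte and nephric cells none, with upper limits of 1.92 to 8.01 CPM.

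Igfbp2, whose product is an abundant binding protein of the fetus, was low throughout. Gut epithelium (45.0 CPM), neurons (38.4 CPM), neural progenitors (35.3 CPM), arterial cells (32.6 CPM, 9 UMIs) and Cdh5+ haematopoietic cells (29.8 CPM) had the highest values, with intervals that overlapped from each to the next. Neurons held 47.8, 38.2, 42.4 and 29.7 CPM in libraries 1 to 4, and neural progenitors 37.4, 35.4, 35.1 and 28.2 CPM. Mesenchyme, at 8.85 to 16.4 CPM over the same libraries, lay below every neural value. The gut value was 24.8 CPM without library 4.

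Endothelial and germ cells had Igfbp2 levels with overlapping intervals. Germ cells had 10.2 CPM (4.39 to 20.04) and 13.6 CPM (7.25 to 23.3) of Igfbp2 in libraries 5 and 6, beside 15.1 CPM (12.3 to 18.3) and 13.9 CPM (11.5 to 16.7) in the endothelial cells of the same libraries. At 3000 UMIs, 3.77% of venous cells (median 7777 UMIs before thinning) and 4.02% of germ cells had a UMI. Intermediate cells had 23.4 CPM (16.8 to 31.9).

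Igfbp7 was almost undetected. Arterial cells held 3 UMIs (10.9 CPM), intermediate cells 7 UMIs (4.10 CPM) and venous cells 9 UMIs (0.640 CPM), and the 108 smooth muscle cells held 5 UMIs (6.13 CPM). There was no UMI in mesenchyme (upper limit 0.793 CPM), sclerotome (0.565 CPM), neurons, neural progenitors, neural crest or germ cells. A low value here describes the deposited counts for the gene as annotated.

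The arterial and venous gradient was then followed in finer steps. Endothelial cells were ordered by the number of arterial markers minus the number of venous markers detected, in 6 steps from 25 cells with the most venous markers to 40 with the most arterial ones. Igf1 stood at 273, 198, 165, 125, 96.1 and 90.6 CPM from the venous to the arterial end. The order of the first 5 steps was the same in library 5 (362, 202, 180, 128 and 92.1 CPM), and in library 6 the values were 227, 205, 153, 107 and 108 CPM. Igfbp3 ran the other way, at 7.10, 11.1, 19.6, 22.1, 55.1 and 83.4 CPM.

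Igfbp4 showed no such order, with 870, 1090, 1049, 1045, 1026 and 1225 CPM, and neither did Igf1r, with 53.3, 34.4, 35.5, 33.9, 39.3 and 36.2 CPM. Igf2, the other ligand and not a member of the set, stood at 962, 1037, 1092, 1144, 1379 and 3059 CPM. The 2 ligand genes thus had their highest values at opposite ends of the endothelium. Depth moved with the gradient, from a median of 10093 UMIs per cell at the venous end to 6102.5 at the arterial end. Its part in the levels, which are scaled to total UMIs, was not tested.

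**Figure D2:**
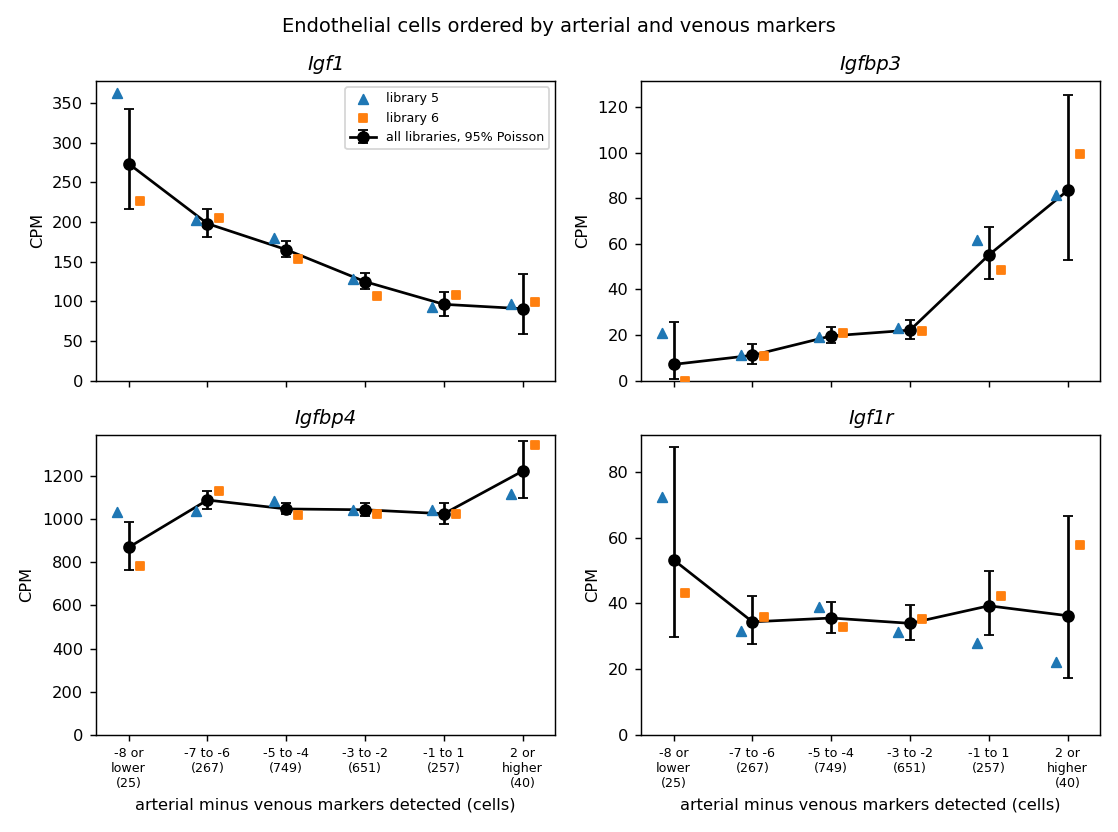
CPM of 4 genes (y axis, linear, from 0) in endothelial cells ordered by arterial minus venous markers detected (x axis, number of cells in parentheses). Black circles are all libraries with 95% Poisson intervals, and triangles and squares are libraries 5 and 6. Igf1 is lower and Igfbp3 higher towards the arterial end, while Igfbp4 and Igf1r show no steady order.

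Endothelial cells were also divided by each of the 20 subset markers alone. The same markers define the steps above, so these values describe them and add no separate support. Igf1 was lower in cells with the marker for 9 of 10 arterial markers, all but Jag1, and higher for 8 of 10 venous markers, all but Aplnr and Flt4. The examples here, and those for other classes below, were chosen after their values were seen. Cells with a UMI of Lyve1, a receptor of lymphatic and venous endothelium, held Igf1 at 252 CPM against 143 CPM in cells without it. For Maf the values were 235 against 148 CPM and for Stab2, a scavenger receptor of sinusoidal and venous endothelium, 203 against 145 CPM. Cells with Dll4, an arterial Notch ligand, held 79.5 against 157 CPM, and cells with Gja4, an arterial gap junction gene, 84.3 against 156 CPM. Jag1 gave 161 against 151 CPM.

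Igfbp3 was higher in cells with the marker for 9 of 10 arterial markers, all but Bmx with 4 cells, and lower for 9 of 10 venous markers, all but Flt4. It stood at 78.4 against 20.2 CPM by Hey1, a Notch target, at 71.9 against 20.8 CPM by Gja4 and at 70.5 against 20.1 CPM by Dll4. Efnb2, another arterial gene, gave 53.0 against 19.8 CPM. Sox17 gave 25.3 against 23.3 CPM and Jag1 28.8 against 23.3 CPM, each with opposite directions in libraries 5 and 6.

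Classes were next compared in pairs. A gene was tested where it reached 50 CPM in either class, and called where log2((CPM + 10)/(CPM + 10)) was at least 1 in size with the same direction in every library that had at least 20 cells of both classes. The 10 CPM added to each side make the ratio of a low gene smaller than its change. Pairs that share a class share its cells: the arterial subset enters the comparisons with venous and with Cdh5+ haematopoietic cells, the Cdh5+ cells are also set against Cdh5- cells, and mesenchyme is set against both endothelium and neural classes. The background for each pair is the share of all tested genes that were called.

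Endothelium against mesenchyme showed 1 gene called of the 4 tested, where 15.5% of 3210 tested genes were called. Igfbp5 was lower in endothelium, at 10.0 against 150 CPM, a log2 ratio of -2.998 (-3.60 to -1.09 in libraries 1 to 4) and -2.06 in libraries 1 to 4 alone, with -2.13 when libraries were weighted equally. Igf1 at 152 against 80.0 CPM (log2 ratio 0.84, 0.65 to 1.38) and Igfbp4 at 1052 against 598 CPM (0.80, 0.78 to 0.93) were higher in endothelium in each of these 4 libraries, below the size for a call. With a stricter gate, Igf1 passed it at 1.12. Igf1r stood at -0.53 (-1.02 to -0.03).

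Arterial against venous cells showed 1 gene called of the 3 tested, beside 5.71% of 3292 genes (12.2% without library 5). Igfbp3 was higher in arterial cells (log2 ratio 1.71, and 1.63 in library 5, the one library with 20 cells of both). Igf1 stood at -0.75, and at -1.11, past the size for a call, when arterial cells were taken as having Gja4 and no Nr2f2 and venous cells the reverse. Igfbp4 stood at 0.22. Igf2 was higher in arterial cells, at 3059 against 1097 CPM (log2 ratio 1.47). The call of Igfbp3 was lost with 50 CPM added in place of 10 (0.96).

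Summed levels of markers of other cell types were also higher in the arterial subset. The 10 smooth muscle markers summed to 652 CPM in arterial and 43.4 CPM in venous cells, with 6 and 9 of them detected and Actg2, Kcnj8, Myh11 and Rgs5 at 0 in arterial cells. In library 5 the sums were 207 and 47.7 CPM. The 10 neuron markers summed to 420 and 68.9 CPM, with 2 and 8 detected. In arterial cells Dcx, Elavl3, Elavl4, Ina, Nefl, Nefm, Stmn3 and Tubb3 were at 0. The arterial sum thus came from Stmn2 and Isl1 alone and does not describe the list as a whole. The 12 haematopoietic markers summed to 210 and 28.6 CPM, with 8 and 9 detected and Gfi1, Itga2b, Ptprc and Rac2 at 0 in arterial cells. Smooth muscle cells themselves held Igfbp3 at 11.03 CPM and Igf2 at 1622 CPM, and Cdh5+ haematopoietic cells held Igfbp3 at 2.04 CPM. The part of RNA from other cells in the arterial values of Igfbp3 and Igf2 was not tested.

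Cdh5+ haematopoietic cells, which have blood markers beside a median of 7.5 of 12 endothelial markers, were set against the arterial subset. Of the 3 genes tested, 2 were called lower, against 23.4% of 3430 genes called, and no library had 20 cells of both, so these ratios also compare libraries. Igfbp3 stood at 2.04 against 83.4 CPM (log2 ratio -2.95). Igf1 stood at 37.2 against 90.6 CPM (-1.09), and Igfbp4 at 682 against 1225 CPM (-0.84) without a call.

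The Igf1 call was lost with a stricter gate (-0.96), with 50 CPM added (-0.69), without library 6 (-0.997) and with the Gja4 and Nr2f2 division (-0.82). Against the whole endothelium, Igf1 was called lower, beside 14.3% of 3119 genes. Igfbp3 was not tested there as it stayed below 50 CPM (-1.48). In libraries 5 and 6 alone, 35 Cdh5+ haematopoietic cells were set against 37 arterial cells. Igf1 and Igfbp3 were both called lower, beside 20.7% of 3475 genes, and Igfbp4 stood at -0.53. Median depth was 13417 UMIs in Cdh5+ haematopoietic and 6102.5 UMIs in arterial cells.

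Cdh5- against Cdh5+ haematopoietic cells, both mainly from libraries 7 and 8 and alike in depth (medians of 13549 and 13417 UMIs), differed in Igfbp4. It was the 1 gene called of the 2 tested, beside 4.66% of 2895 genes (6.87% without library 8). Igfbp4 stood at 325 against 693 CPM in library 7 and at 293 against 637 CPM in library 8. The log2 ratio was -1.20 over all libraries and -2.09 with clusters in place of marker classes. The cluster used for Cdh5- cells held 87 such cells among 185. Its top genes included the macrophage markers Tyrobp and C1qb and the megakaryocyte markers Pf4 and Gp9, so it was another mix of cells. Igf1r was higher at 64.4 against 42.1 CPM (0.52, with 73.5 against 39.4 CPM and 68.0 against 49.7 CPM in libraries 7 and 8), below the size for a call. In both libraries the order of the 2 classes was the same for each gene.

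Another 3 genes below 50 CPM in these cells had the same direction as Igfbp4. Igf1 stood at 14.0 against 37.2 CPM (log2 ratio -0.97, and -2.06 with the clusters just described). Igfbp2 stood at 3.12 against 29.8 CPM (-1.60) and Igfbp5 at 2.60 against 16.3 CPM (-1.06). Each was lower in Cdh5- cells in libraries 7 and 8. Endothelial markers moved with them. The 12 markers summed to 1378 CPM in Cdh5+ cells, with all 12 detected, and to 434 CPM in Cdh5- cells, with 11 detected and Cdh5 itself at 0 by the rule. Of the Cdh5+ cells, 50 had a single Cdh5 UMI. Macrophage markers moved the other way. The 12 of them summed to 241 CPM in Cdh5+ cells (187 and 283 CPM in libraries 7 and 8), with 6 detected, and to 549 CPM in Cdh5- cells (406 and 424 CPM), with 10 detected. Adgre1 and C1qa were at 0 in both classes. Macrophages themselves held Igfbp4 at 181 CPM and Igf1 at 5.28 CPM. Igfbp5 and Igfbp2 stood at 10.0 and 14.6 CPM in the endothelium as a whole, which was mostly venous. In the 40 arterial cells they stood at 18.1 and 32.6 CPM (5 and 9 UMIs), with intervals that held the values of Cdh5+ cells. The parts of endothelial RNA and of macrophage-like cells in these values were not tested.

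**Figure D3:**
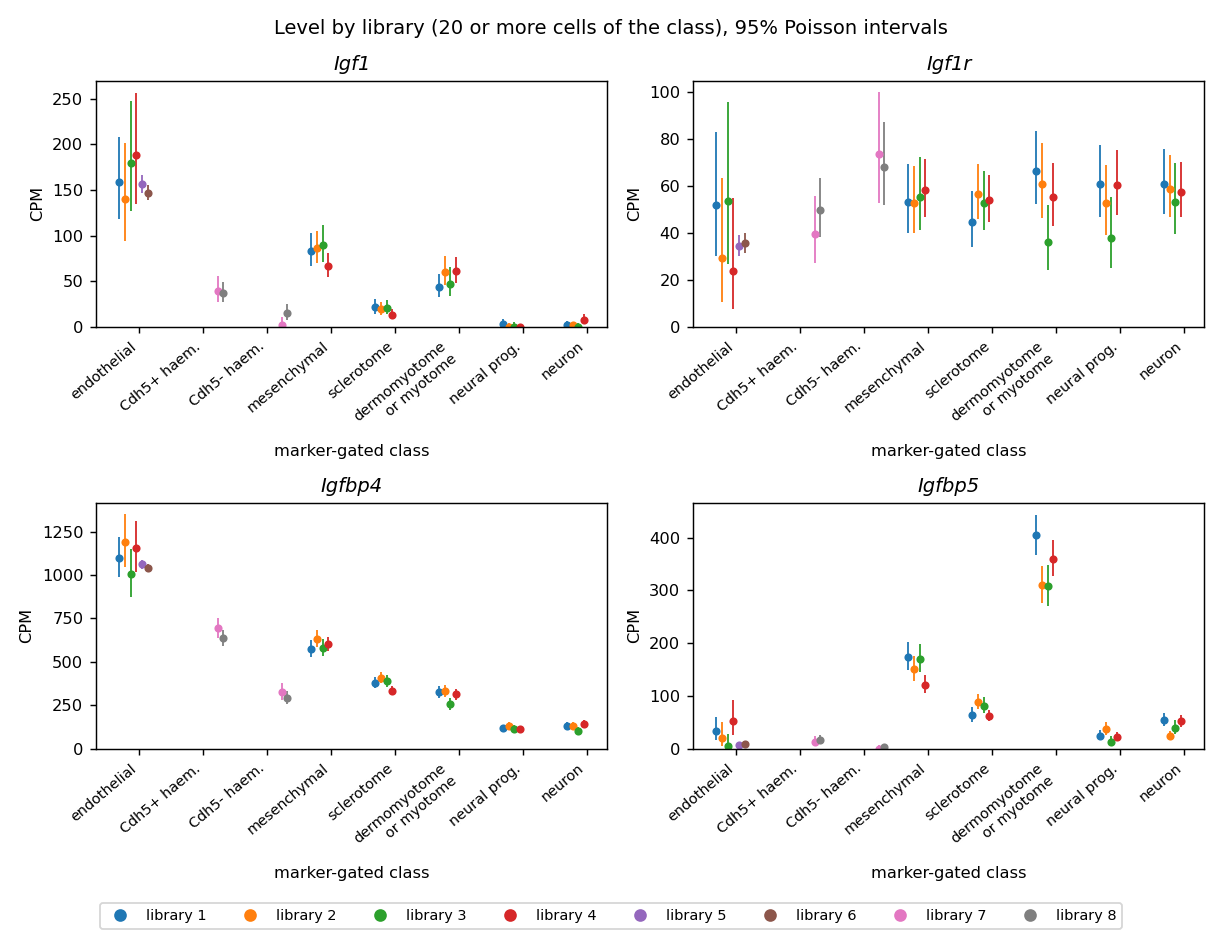
CPM of 4 genes (y axis, linear, from 0) in 8 classes (x axis) for each library with at least 20 cells of the class, with 95% Poisson intervals and colours for libraries. Igfbp4 is ordered endothelium, Cdh5+ haematopoietic and mesenchymal cells, then the rest, and Igfbp5 is highest in dermomyotome or myotome cells in each of libraries 1 to 4.

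Within the somite, the sclerotome was compared with the dermomyotome or myotome, with both classes present in libraries 1 to 4. Of the 4 genes tested, 2 were called, both lower in sclerotome, beside 4.29% of 2958 genes. Igfbp5 stood at 63.7, 88.3, 81.3 and 62.4 CPM in sclerotome against 404, 310, 308 and 360 CPM, a log2 ratio of -2.11 (-2.49 to -1.70). Igf1 stood at 21.2, 19.3, 20.5 and 13.2 CPM against 43.9, 59.9, 47.4 and 60.8 CPM, a log2 ratio of -1.16 (-1.61 to -0.79). For both genes the values of the 2 classes did not overlap over the 4 libraries.

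The Igf1 call did not hold in 4 settings. Without library 4 the ratio was -0.97 and with 50 CPM added -0.60. Without doublet removal (-1.04) and with a stricter gate (-1.27) the ratio met the size but not the other conditions. Igf1r (-0.07) and Igfbp4 (0.27) were not called. Igfbp3 at 2.76 against 21.7 CPM and Igfbp2 at 8.73 against 25.3 CPM stayed below 50 CPM, and both were lower in sclerotome in each of the 4 libraries.

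The dermomyotome or myotome class was not uniform. Its 182 cells with Myog, the factor that starts muscle differentiation, held Igfbp5 at 479 CPM (447 to 513) against 253 CPM (233 to 274) in the 260 cells without, and Igfbp3 at 41.0 against 7.51 CPM. Igf1 went the other way, at 36.5 CPM (28.1 to 46.6) against 65.5 CPM (55.6 to 76.6). Each of these directions held in 4 of 4 libraries, and the median depth was 8823.5 and 8837 UMIs.

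Other markers of the class sorted in the same way. Cells with Actc1, a muscle actin, held Igfbp5 at 489 against 260 CPM, Igfbp3 at 44.2 against 7.46 CPM and Igf1 at 24.3 against 71.4 CPM. Cells with Pax3, a factor of the dermomyotome, had 306 against 452 CPM, 12.3 against 44.3 CPM and 63.4 against 28.7 CPM of the same genes, the last in 3 of 4 libraries. Cells with Eya1, a factor that acts upstream of muscle genes, had Igfbp5 at 163 against 408 CPM and Igf1 at 77.2 against 45.5 CPM. Igf1r was higher with Myog (67.8 against 47.1 CPM) and Igfbp4 nearly level (321 against 299 CPM).

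**Figure D4:**
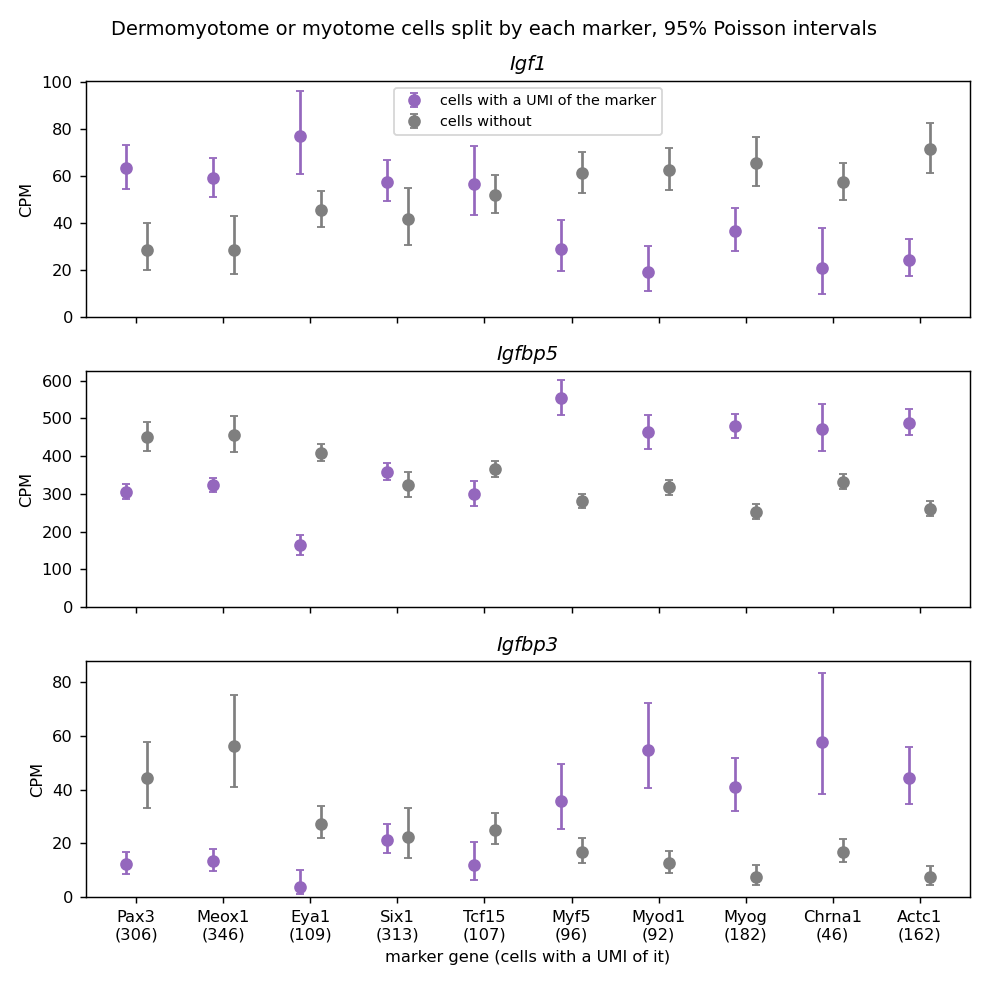
CPM (y axes, linear, from 0) of Igf1, Igfbp5 and Igfbp3 in dermomyotome or myotome cells with (purple) and without (grey) a UMI of each of the 10 markers of the class (x axis, cells with the marker in parentheses), with 95% Poisson intervals. With Myod1, Myog or Actc1, Igf1 is lower and Igfbp5 and Igfbp3 are higher, and with Pax3, Meox1 or Eya1 the order is reversed.

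In sclerotome, cells with Pax9, a factor of sclerotome and its cartilage, held Igf1 at 7.58 against 26.1 CPM, and cells with Pax1 at 10.7 against 25.7 CPM. Cells with Uncx, a factor of the posterior sclerotome, held Igfbp5 at 101 against 58.5 CPM, and cells with Sox9, a cartilage factor, at 60.4 against 112 CPM. Levels in the sclerotome class thus also varied with its own markers.

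Mesenchyme was last set against the neural classes, progenitors and neurons together. Of the 4 genes tested, 3 were called, all higher in mesenchyme, beside 9.92% of 3154 genes. Igf1 stood at 80.0 against 2.22 CPM (log2 ratio 2.88, 2.41 to 3.32 in libraries 1 to 4). Igfbp4 stood at 598 against 124 CPM (2.18, 2.12 to 2.34) and Igfbp5 at 150 against 38.5 CPM (1.72, 1.44 to 2.26). The receptor did not follow its ligand, with Igf1r at 55.9 against 57.2 CPM (-0.03, -0.16 to 0.20). Igfbp2, under 50 CPM, was lower in mesenchyme at 11.8 against 37.0 CPM.

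**Figure D5:**
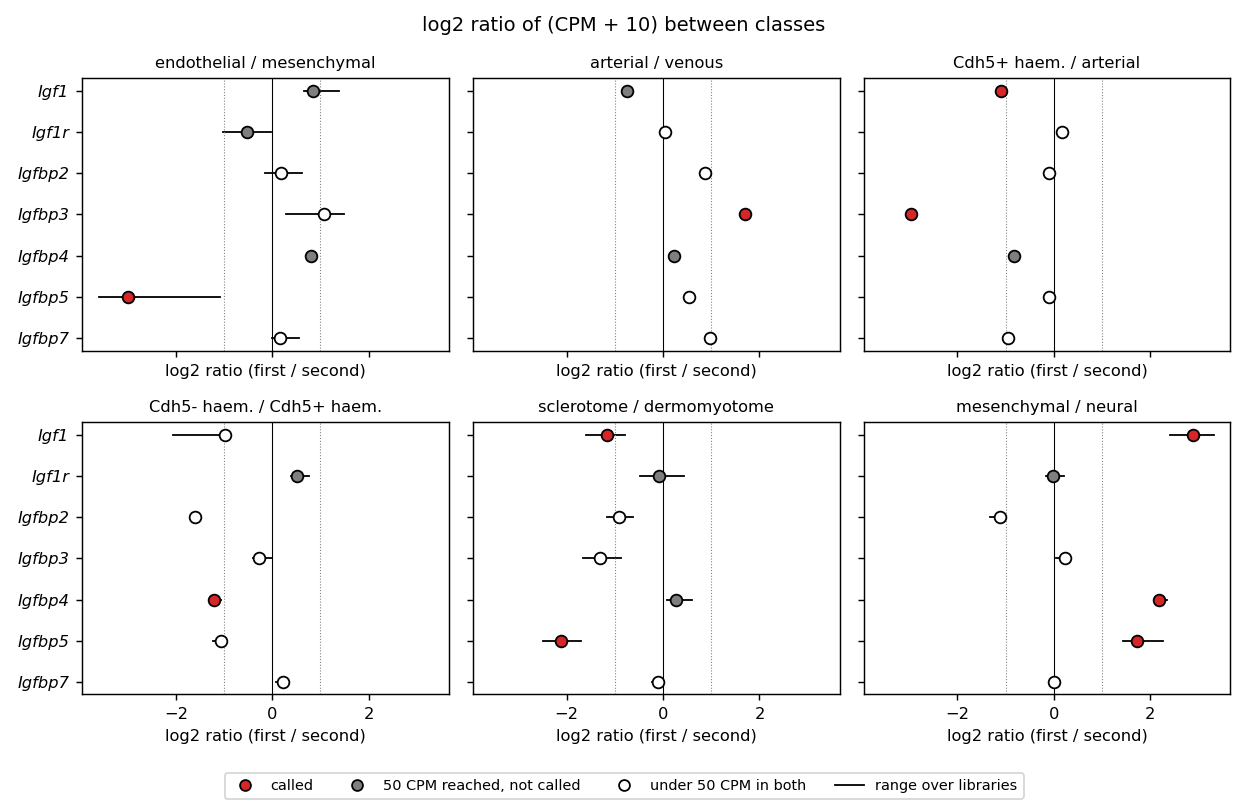
log2 ratio of (CPM + 10) between the first and second class (x axis, linear) for each of the 7 genes in 6 comparisons, with lines for the range over libraries that have at least 20 cells of both. Red points were called, grey points reached 50 CPM without a call and open points stayed below it, and dotted lines mark the size for a call. The called genes are Igfbp5 in 3 comparisons, Igf1 in 3, Igfbp3 in 2 and Igfbp4 in 2.

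Mesenchyme also varied with its own markers. Cells with Wnt2, a WNT ligand, held Igf1 at 109 against 45.0 CPM and Igfbp5 at 205 against 83.4 CPM. Cells with Prrx1, a factor of limb and body wall mesenchyme, held more Igf1 (86.0 against 47.1 CPM) and less Igfbp5 (107 against 383 CPM). Foxf1 and Hand1, factors of the visceral mesoderm, went with high Igfbp5 (322 against 139 CPM and 299 against 92.6 CPM), and Hand1 with lower Igf1 (56.5 against 89.0 CPM). The 43 cells with Tbx18 held Igf1 at 10.4 CPM, against 86.2 CPM in the rest.

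Among neural progenitors Igfbp5 differed by position markers. Cells with Pax6, a factor of dorsal and intermediate progenitors, had 8.26 against 61.9 CPM, and cells with Nkx6-1, a ventral factor, 72.2 against 15.5 CPM, with the same direction in 4 of 4 libraries for each. Igfbp2 was higher with Fabp7, a gene of radial glia, at 42.7 against 22.5 CPM. In neurons, Igfbp4 was higher with Nefl, a neurofilament gene, at 159 against 88.7 CPM. In coelomic epithelial or gonadal cells, Igfbp5 was lower with the gonadal factors Lhx9 (83.6 against 428 CPM) and Nr5a1 (25.8 against 254 CPM).

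The rest of the IGF pathway was followed with a list of 47 genes. Igf2 was the one other ligand to reach 50 CPM, with 1275 CPM in Cdh5+ and 341 CPM in Cdh5- haematopoietic cells, 974 CPM in dermomyotome or myotome, 779 CPM in mesenchyme and 20.3 CPM in neural progenitors. Igf2r, the receptor that clears IGF2, was highest in smooth muscle (169 CPM) and coelomic epithelial or gonadal cells (111 CPM), with 90.6 CPM in arterial cells and 58.5 CPM in mesenchyme. Insr, the insulin receptor, stayed at or below 25.4 CPM.

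Regulators of the binding proteins were detected at low levels. None of 7 proteases and their inhibitors reached 50 CPM, with Adam12 at 37.3 CPM in venous and Pappa at 34.3 CPM in smooth muscle cells the highest of them. Of 4 other binding proteins, Igfbpl1 alone reached it, at 66.4 CPM in neurons. Of 8 adaptors, Grb10, an imprinted brake on IGF and insulin receptors, did so with 472 CPM in neural crest, as did Shc1 with 50.7 CPM in arterial cells. Of the pathway core, 7 of 19 PI3K-AKT-mTOR genes and 3 of 3 Igf2 mRNA-binding proteins reached 50 CPM.

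Counts of the pathway list in the 6 comparisons were small. No gene of 11 tested was called for endothelium against mesenchyme, 1 of 12 for arterial against venous cells (Igf2, higher), 3 of 12 for Cdh5+ haematopoietic against arterial cells, 1 of 10 for Cdh5- against Cdh5+ cells (Igf2 lower, log2 ratio -1.87), none of 9 in the somite and 3 of 10 for mesenchyme against neural classes. Over all tested genes the shares called were 15.5, 5.71, 23.4, 4.66, 4.29 and 9.92%, in the same order. Counts as small as those of the list cannot be told apart from these shares. The 3 lower in Cdh5+ haematopoietic cells were Igf2r (-1.37), Igf2 (-1.26) and Grb10 (-1.22). The 3 higher in mesenchyme were Igf2 (3.66), the translation repressor gene Eif4ebp1 (1.82) and Igf2r (1.29). In these 6 comparisons the median log2 ratios of the 7 genes, over those tested, were 0.14, 0.22, -1.09, -0.34, -0.62 and 1.95, those of the pathway list -0.15, 0.07, -0.09, -0.27, -0.02 and 0.21, and those of all tested genes -0.03, 0.06, -0.16, 0.01, 0.09 and -0.04.

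Binding protein genes were also counted per cell. At 3000 UMIs, 95.4% of venous, 92.8% of intermediate, 87.4% of Cdh5+ haematopoietic, 86.7% of mesenchymal and 80.0% of dermomyotome or myotome cells had a UMI of at least 1 of the 5 binding protein genes. The share was 52.1% in Cdh5- haematopoietic cells, 42.8% in neurons, 38.7% in neural progenitors and 5.36% in germ cells. At least 2 of the genes were seen in 31.0% of dermomyotome or myotome, 29.7% of arterial, 25.7% of mesenchymal and 9.56% of venous cells.

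Endothelial cells with and without an Igf1 UMI were compared in the other 6 genes. Of 650 cells with Igf1 at 3000 UMIs and 1265 without, 10.2% and 9.57% had an Igf1r UMI, 94.5% and 94.9% an Igfbp4 UMI, 4.77% and 6.17% an Igfbp3 UMI, 4.0% and 4.27% an Igfbp2 UMI and 0.462% and 0.395% an Igfbp7 UMI. For Igfbp5 the shares were 3.08% (1.89 to 4.71%) and 1.74% (1.09 to 2.62%). The intervals overlapped for each of the 6 genes at 3000 UMIs. At 5000 UMIs, which left out 369 cells, Igfbp5 was seen in 4.42% (3.06 to 6.16%) of cells with Igf1 and 1.72% (0.964 to 2.81%) of those without, intervals that did not overlap, while those of the other 5 genes did.

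Across 16 classes of at least 50 cells, the genes whose log2(CPM + 10) was most like each member were found among 5093 genes that reach 50 CPM. For Igf1 they were Mogat2 (Pearson 0.88), Sh3bp5 (0.85) and Ldb2 (0.81), and for Igf1r Ergic3 (0.93), Fam168b (0.91) and Dcun1d1 (0.91). For Igfbp3 they were Parvb (0.85), Vwa1 (0.82) and Dad1 (0.80), for Igfbp4 Gemin7 (0.90), Cd81 (0.89) and Clic1 (0.88), and for Igfbp5 Fzd2 (0.91), Rab34 (0.91) and Flrt3 (0.91). The arterial subset and megakaryocytes, with 40 cells each, were left out. The arterial subset had the highest Igfbp3 and Igfbp4 levels and megakaryocytes the highest Igf1r level. Germ cells, at 3.64 CPM of Igf1r, lay below all other classes for that gene, and their part in its correlations was not tested. The classes share libraries and depth, and the lists depended on the measure. By Spearman, the gene nearest to Igf1 was Igfbp4 (0.93). Among the members, Igf1 and Igfbp4 had a Pearson correlation of 0.78, Igf1r and Igfbp5 of 0.66, and Igf1 and Igf1r of 0.05.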

How the data were processed

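The data are 1 matrix of raw UMI counts per gene and barcode, deposited by the authors without normalisation. The submitters' processing notes name Cell Ranger, without a version, and the mm10 build. The deposited gene and barcode names have no unit. The sources used here do not say whether reads were thinned before libraries were combined.

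The filter asked for 1000 UMIs and 500 genes or more and for mitochondrial UMIs of 10% or less (9383 of 9492 barcodes passed), and the 5% of each library with the highest doublet score were removed (468 barcodes; neighbours among 2 simulated doublets per barcode). The labels state only a doublet rate below this share. Doublets may still remain, since how well the score finds them was not tested. A class needed at least 3 of its markers and a lead of 0.1 in the share of markers over the next list, and blood at least 4 markers. Of kept cells, 2612 (29.3%) stayed outside all classes, and classes under 20 cells are not described. CPM were computed from summed counts, with 95% exact intervals (scipy 1.17.1, numpy 2.4.6, pandas 2.3.3, Python 3.11.15), and a floor of 3 counts. No test was made, since each sorted population has 1 sample and cells cannot be traced to it. The calls between classes were tested on simulated counts, and the Poisson intervals were checked against the Poisson distribution. The gates, thinning and doublet scoring were not tested this way. Alternative settings included clusters in place of marker gates (leidenalg 0.10.2, igraph 0.11.9, scikit-learn 1.9.0).

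The 7 genes, the marker lists, the 47-gene pathway list and the comparisons were chosen with earlier results of these data known. Named genes were the 7 members, the 3 genes most like each member that reaches 50 CPM, Igf2, Igf2r and Insr, and up to 3 called pathway genes per comparison. Pathway genes named by their highest class and splits by single markers were chosen after their values were seen. Gene positions come from GENCODE M21, and promoter windows from RefSeq. No protein sequence was used here.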

Additional observations from a re-analysis of the deposited data

Results flagged for a closer look

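Library values were screened in classes that had 4 or more libraries of at least 20 cells, 37 groups in all, which do not cover every gene in every such class. In 2 of them the gap of 1 library to the next was a large part of the whole range. Chance alone would mark about 1 in 20 groups of normally distributed values, and this rate was not checked for counts as small as these. Igf1 in neural progenitors of library 1 stood at 2.80 CPM, from 3 UMIs in 151 cells (0.578 to 8.19), while the other 3 libraries held 0, with upper limits of 2.81 to 5.18 CPM. Igfbp2 in neural crest of library 1 stood at 12.03 CPM, from 9 UMIs in 75 cells (5.50 to 22.8), while the others lay between 6.28 and 6.62 CPM. The intervals of library 1 overlapped those of the other libraries in both groups. The Igf1 UMIs of library 1 are among those of the neural classes in the comparison with mesenchyme, and neural crest enters no comparison.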

How the results depend on the processing

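Of 851 alternative values of single genes, 784 stayed within the spread and none reversed a call. Counts of called members were 1, 1, 2, 1, 2 and 3 in the 6 comparisons. With libraries left out in turn the ranges were 1 to 1 for endothelium against mesenchyme, 1 to 1 for arterial against venous, 1 to 2 for Cdh5+ haematopoietic against arterial (1 without library 6), 1 to 1 for Cdh5- against Cdh5+, 1 to 2 in the somite (1 without library 4) and 3 to 3 for mesenchyme against neural classes. For endothelium against mesenchyme the count was 2 with a stricter gate (Igf1 at 1.12) and 2 with no minimum level (Igfbp3 at 1.07). For arterial against venous it was 0 with 50 CPM added (Igfbp3 at 0.96) and 2 with the Gja4 and Nr2f2 division. For Cdh5+ haematopoietic against arterial it was 1 with a stricter gate, with 50 CPM added, with that division, and with the whole endothelium as reference in all libraries (Igfbp3 at -1.48) or in libraries 5 and 6 alone (-1.29). The gene still called was Igf1 with the whole endothelium and Igfbp3 in the other settings. With the arterial subset in libraries 5 and 6 alone the count was 2. For Cdh5- against Cdh5+ it was 3 with no minimum level. In the somite it was 1 without doublet removal, with a stricter gate and with 50 CPM added. With clusters in place of gates no count of members changed by over 1.5 times, but the log2 ratio between Cdh5- and Cdh5+ cells went from -1.20 to -2.09 for Igfbp4 and from -0.97 to -2.06 for Igf1. The cluster used for Cdh5- cells held 87 such cells among 185. With 1 and 50 CPM added, it was -3.77 and -1.74 for Igfbp5 in endothelium against mesenchyme, -4.79 and -1.36 for Igfbp3 in Cdh5+ haematopoietic against arterial cells, and 4.65 and 1.32 for Igf1 in mesenchyme against neural classes. Over all genes tested, 498, 188, 801, 135, 127 and 313 were called in the 6 comparisons, in the same order. With 50 CPM added these counts were 286, 64, 348, 58, 82 and 190, and with no minimum level 1101, 553, 1642, 288, 314 and 799. Arterial against venous had 401 called genes without library 5 and 73 with the Gja4 and Nr2f2 division. Cdh5- against Cdh5+ had 271 with clusters and 203 without library 8. Cdh5+ haematopoietic against arterial had 445 with the whole endothelium as reference and 429 with it in libraries 5 and 6 alone. The Gja4 and Nr2f2 division, the whole endothelium as reference and the limits to some libraries were chosen after seeing the data. By Spearman in place of Pearson, 0, 1, 1, 0 and 0 of 3 most similar genes were shared for Igf1, Igf1r, Igfbp3, Igfbp4 and Igfbp5. The causes of these changes were not tested. No paired analysis was possible because each population has 1 sample. Depth limits Igfbp7, with 19 UMIs in all endothelial cells, and the values of the 40 arterial cells.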
